A study of Homo sapiens with 6 samples.

Results

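The genes described here are 31 genes of S phase and DNA replication, chosen by symbol from the 60623 genes in the deposited tables. They cover the loading of the replicative helicase (ORC1, ORC6, CDC6, CDT1 and MCM2 to MCM7), its activation (CDC45, GINS1 to GINS4 and MCM10), DNA synthesis at the fork (POLA1, POLE, PCNA, RFC3, RFC4 and FEN1), the supply of nucleotides (RRM1, RRM2 and TYMS), the control of entry into S phase (CCNE1, CCNE2, E2F1 and E2F2), and chromatin copying and histone mRNA (UHRF1 and SLBP). All 31 passed the filter on low counts and were among the 14928 genes tested. All libraries were made from mRNA of DU145, a prostate cancer line whose genotype is labelled WT, and the line is the only model used. In 3 libraries, the controls, the cells had received DMSO, the solvent. In the other 3 they had received 1 µM CCS1477 (inobrodib), a bromodomain inhibitor of p300 and CBP, which acetylate histones at enhancers and promoters, and both treatments lasted 24 h. Nothing in the labels says that the replicates were separate cultures, so each p-value reflects only the spread among these libraries, which may be technical.

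A human cell licenses its origins of replication in G1, when ORC, CDC6 and CDT1 load rings of MCM2 to MCM7 onto DNA. In S phase, CDC45 and the GINS complex join each ring to make the active helicase, and polymerases then copy the strands with the PCNA clamp and the RFC clamp loader. Cyclin E with CDK2 starts this switch, and E2F transcription factors, held back by RB1 in normal cells, drive most of these genes once per cycle. DU145 cells are known for lacking a working RB1 protein.

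Library totals ran from 8286880 to 11956734 counts, and each of the 31 genes had between 134 and 4970 counts in every library, well above the 3 counts taken as a detection floor (0.251 to 0.362 CPM, which covers counting error only). Levels are given as CPM, counts scaled to library size with TMM factors, unless TPM is named. The TMM factors lay between 0.982 and 0.985 in DMSO and between 1.009 and 1.023 in CCS1477. All 5 epithelial markers examined (KRT8, KRT18, KRT19, EPCAM and CDH1) were detected, and their summed level was 2230 to 2448 CPM, without TMM, in DMSO and 2044 to 2208 in CCS1477. Of these, CDH1 fell from 191 ± 21.8 to 85.0 ± 2.33 CPM and KRT19 from 460.4 ± 40.2 to 363 ± 17.4 CPM (SD, n = 3, edgeR adjusted p = 1.6e-05 and 0.021), and the others did not pass. KLK3, KLK2 and FOLH1, which mark luminal prostate cells, had 0 counts in every library. Leukocyte markers summed to at most 4.43 CPM, endothelial markers to at most 0.798, and the fibroblast list to at most 21.6, most of it COL1A1.

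Most of the replication genes did not pass the test, and those that did went both ways. After CCS1477, cyclin E2 (CCNE2), the ribonucleotide reductase subunit RRM2, thymidylate synthase (TYMS) and the licensing factor CDT1 rose, and the helicase subunits MCM2 and MCM5 fell. At an adjusted p under 0.05 in edgeR, 4 of the 31 (12.9%) were higher, against 7.23% of all tested genes, and 2 (6.45%) were lower, against 10.7%. Calls in either direction made up 17.9% of all tested genes, and 25 of the 31 did not pass. With scaling by library size alone, which gave 1456 higher and 1361 lower genes in place of 1079 and 1597, the counts were 6 higher and 1 lower among the 31. The median log2 fold change of the 31 genes was 0.06, and that of all tested genes was -0.0030. Positive log2 fold changes numbered 19 of 31, or 61.3%, against 49.6% of all tested genes. Summed over the 31 genes, the level was 3506 ± 27.9 CPM in DMSO and 3690 ± 67.5 CPM in CCS1477 (SD, n = 3). This sum gives most weight to abundant genes. Mean CPM went from 268 to 361 for RRM2 and from 225 to 288 for TYMS. It fell from 179 to 145 for MCM2 and from 195 to 155 for MCM5. In bulk RNA, a change in the share of cells in S phase and a change in RNA per cell cannot be told apart.

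**Figure D1:**
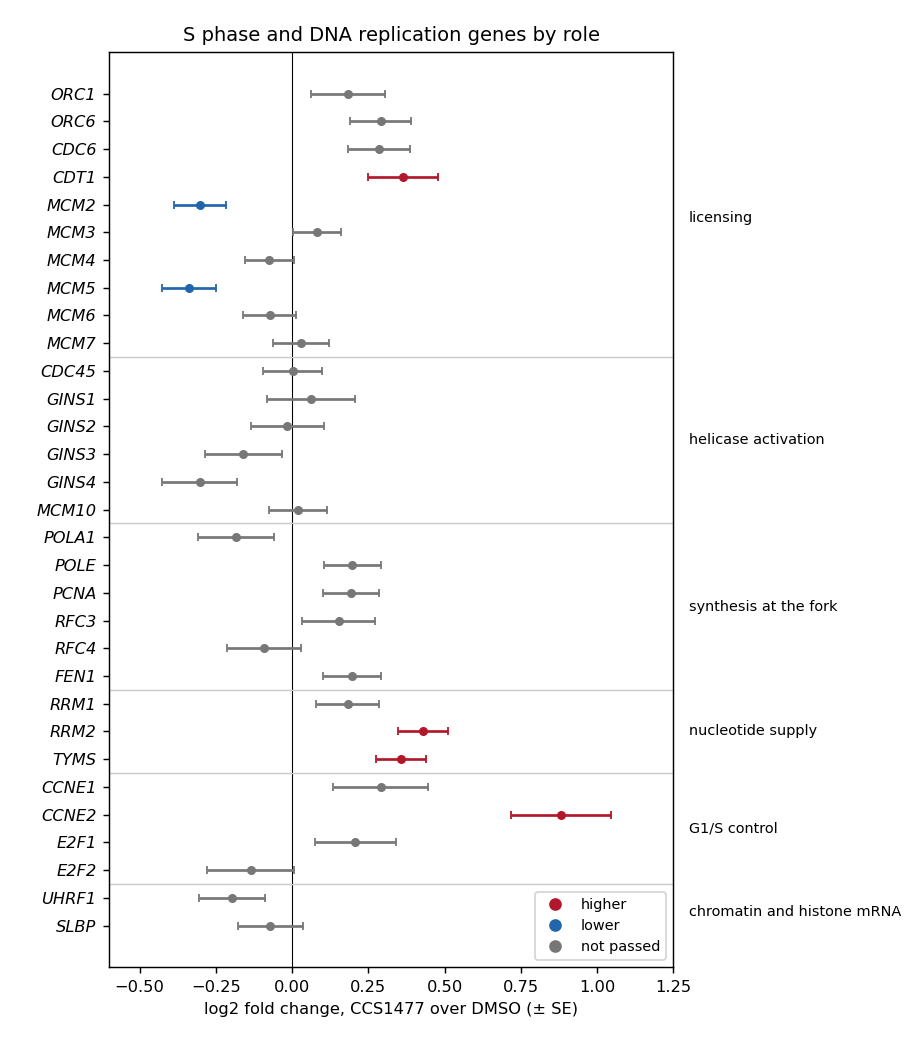
Log2 fold change of each of the 31 genes, CCS1477 over DMSO, with its standard error, grouped by role. Red points passed the threshold as higher (4 genes), blue points as lower (2 genes), and grey points did not pass (25 genes); CCNE2 stands apart at 0.88.

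CCNE2 (chromosome 8, 94879770 to 94896678, minus strand, in the coordinates of the files, whose build the sources used here do not name) had the highest log2 fold change of the 31 genes. It encodes cyclin E2, a partner of CDK2 at the start of S phase. CCNE2 stood at 18.9, 16.3 and 25.5 CPM in DMSO libraries 1, 2 and 3 and at 39.2, 39.5 and 32.5 CPM in CCS1477 libraries 1, 2 and 3. All 3 treated libraries were above all 3 controls, and the highest control, DMSO 3, and the lowest treated library, CCS1477 3, came closest. The log2 fold change was 0.88 ± 0.16 (SE), a fold of 1.84 (Benjamini-Hochberg adjusted p = 0.00357 by edgeR). The call held under all 15 alternatives, with log2 fold changes from 0.76 to 1.07. On the opposite strand, CCNE2 overlaps INTS8 by 1977 bases and NDUFAF6 by 912, and since strandedness is unknown their reads cannot be told apart there. INTS8 averaged 1346 counts and NDUFAF6 91.5, against 272 for CCNE2. INTS8 had a log2 fold change of 0.24 and NDUFAF6 of -0.54, and neither passed.

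The other cyclin E gene, CCNE1, did not pass. It had 17.2, 15.5 and 18.0 CPM in DMSO and 17.5, 19.9 and 24.6 CPM in CCS1477. Its groups overlapped, since CCS1477 1 lay below DMSO 3. The log2 fold change of CCNE1 was 0.29 ± 0.16 (SE), with a 95% interval from -0.050 to 0.63. The ratio of CCNE2 to CCNE1 CPM was 1.10, 1.06 and 1.41 in DMSO and 2.24, 1.98 and 1.32 in CCS1477, so the groups overlapped here too. The difference was 0.61 on the log2 scale (exact permutation test, two-sided, p = 0.2, with 0.1 the lowest value that 3 against 3 can give), with an adjusted p = 0.3 in the permutation test over the 3 ratios examined, all of them chosen after the values were seen. With that floor the test could not reach 0.05, so it says nothing on whether the cyclin E genes responded differently.

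The transcription factors of this step, E2F1 and E2F2, did not pass either. E2F1, an activator of the replication genes, had 72.6, 50.8 and 71.0 CPM in DMSO and 76.1, 69.8 and 78.4 CPM in CCS1477. DMSO 2 lay far below the other 5 libraries, which spanned 69.8 to 78.4 CPM. The log2 fold change of E2F1 was 0.21 ± 0.13 (SE), and 0.067 without DMSO 2. E2F2, also an activator, had 16.9 to 20.04 CPM in DMSO and 15.04 to 18.2 CPM in CCS1477. Its groups overlapped, and its log2 fold change was -0.14 ± 0.14 (SE).

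All 3 genes of nucleotide supply had positive log2 fold changes, and RRM2 and TYMS passed. Among all tested genes, 49.6% were positive and 7.23% were called higher. RRM2 (chromosome 2, 10120698 to 10211725, plus strand) encodes the small subunit of ribonucleotide reductase, which is made in S phase and limits the supply of deoxynucleotides. It had 257, 262 and 287 CPM in DMSO and 364, 358 and 363 CPM in CCS1477. The treated libraries lay within a narrow band, and each was above every control. RRM2 rose by 0.43 ± 0.082 (SE) on the log2 scale, a fold of 1.35 (Benjamini-Hochberg adjusted p = 0.00396 by edgeR). On the TPM scale its log2 difference was larger, 0.64, but did not pass (adjusted p = 0.053 in limma on log2(TPM + 1)).

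TYMS (chromosome 18, 657653 to 673578, plus strand), which makes thymidylate and is the target of fluorouracil, had 220.2, 223 and 232 CPM in DMSO and 270, 294 and 300.5 CPM in CCS1477. Its groups did not overlap. TYMS rose by 0.36 ± 0.083 (SE) on the log2 scale, a fold of 1.28 (Benjamini-Hochberg adjusted p = 0.0116 by edgeR). The call ended without DMSO 1, CCS1477 2 or CCS1477 3, with adjusted p = 0.0604, 0.0674 and 0.0677 in the same edgeR test. TYMS overlaps 2 genes on the opposite strand. ENOSF1, which shares 3261 bases with it, averaged 977 counts against 2490 for TYMS and had a log2 fold change of 0.18 (edgeR adjusted p = 0.398). TYMSOS, which shares 688 bases at the start of TYMS, averaged 36.3 counts and went the other way, with a log2 fold change of -1.34 (edgeR adjusted p = 0.00684).

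RRM1, the large subunit of the same reductase, had 136, 158 and 128 CPM in DMSO and 172, 144 and 162 CPM in CCS1477. DMSO 2 and CCS1477 2 ran against the group order. The log2 fold change of RRM1 was 0.18 ± 0.10 (SE), and it did not pass. The ratio of RRM2 to RRM1 CPM was 1.93 ± 0.294 in the controls and 2.28 ± 0.185 after treatment (SD, n = 3; exact permutation, two-sided, p = 0.3, in a test with the same floor).

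**Figure D2:**
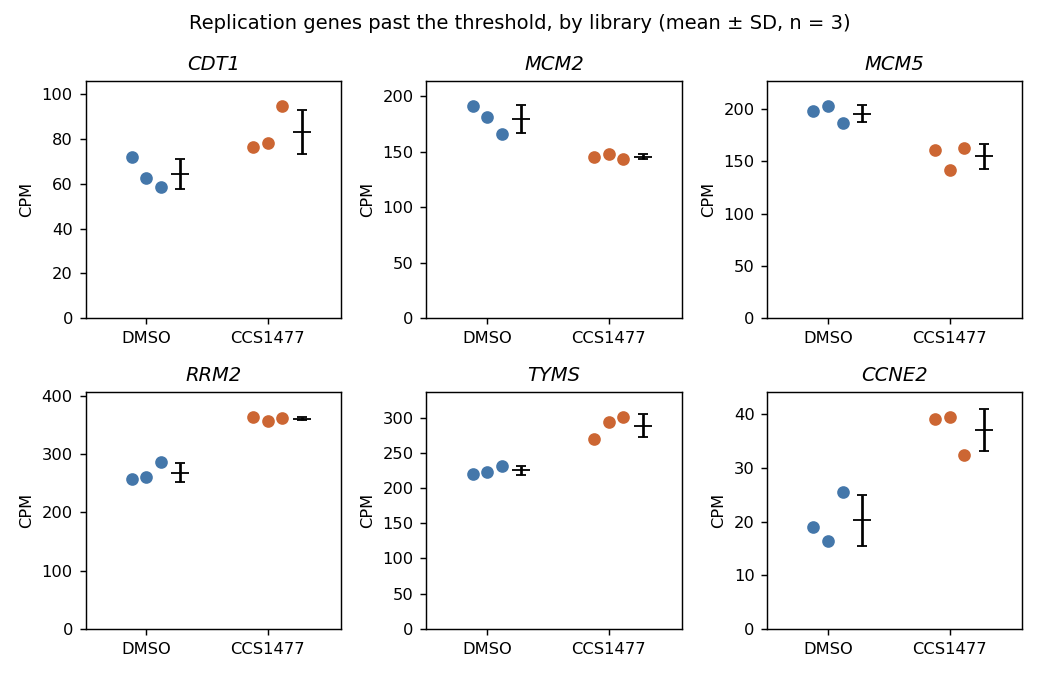
CPM of the 6 genes past the threshold, 1 point per library (blue DMSO, orange CCS1477), with mean ± SD (n = 3) in black and axes from 0. No gene has overlapping groups, and CCNE2 has the widest gap relative to its level, from a mean of 20.3 to 37.02 CPM.

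Among the 10 licensing genes, 1 was higher (10%), 2 were lower (20%) and 7 did not pass. Of all tested genes, 7.23% were higher and 10.7% lower, so counts this small do not set the role apart. ORC1, ORC6, CDC6 and CDT1, which load the helicase, had positive log2 fold changes, and CDT1 alone of them passed. CDT1 (chromosome 16, 88803789 to 88809258, plus strand), which brings MCM rings to ORC and CDC6 and is destroyed once S phase begins, had 72.0, 62.8 and 58.8 CPM in DMSO and 76.5, 78.5 and 94.6 CPM in CCS1477. The gap between the groups was small, 72.0 against 76.5, and CCS1477 3 was the highest library. CDT1 rose by 0.36 ± 0.12 (SE) on the log2 scale, a fold of 1.29 (Benjamini-Hochberg adjusted p = 0.0471 by edgeR). This was the called gene nearest the threshold, and leaving out any 1 of the 6 libraries ended its call, with log2 fold changes from 0.26 to 0.46 and adjusted p from 0.0529 to 0.209. On the TPM scale it stood at 0.24 and did not pass.

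ORC6 and CDC6 lay just outside the threshold. ORC6, the smallest ORC subunit, had 47.9, 49.2 and 55.0 CPM in DMSO and 61.4, 63.8 and 60.5 CPM in CCS1477, and CDC6, the ATPase that acts with ORC, had 102, 90.6 and 85.5 CPM in DMSO and 125, 108 and 106 CPM in CCS1477. Neither gene had overlapping groups. Their log2 fold changes were 0.29 ± 0.099 and 0.29 ± 0.10 (SE, Benjamini-Hochberg adjusted p = 0.0645 and 0.0755 by edgeR). Both passed with scaling by library size alone (adjusted p = 0.0352 and 0.041), ORC6 also without DMSO 3 (adjusted p = 0.0293) and CDC6 also without a filter (adjusted p = 0.0405). Scaling by library size alone raised log2 fold changes in general. The median of all tested genes was 0.045 there, against -0.0030 with TMM. ORC1, the ATPase subunit of ORC that cycles with G1, had 28.2 to 34.9 CPM in DMSO and 34.3 to 39.3 CPM in CCS1477, with a log2 fold change of 0.18 ± 0.12 (SE).

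Of the 6 subunits of the helicase ring, 2 passed, both lower, and 10.7% of all tested genes were called lower. MCM2 (chromosome 3, 127598410 to 127622436, plus strand) had 191, 182 and 166 CPM in DMSO and 146, 148 and 143 CPM in CCS1477, and MCM5 (chromosome 22, 35400134 to 35425431, plus strand) had 198, 202 and 186 CPM in DMSO and 160.5, 141 and 163 CPM in CCS1477. For both genes every treated library lay below every control. MCM2 fell by 0.30 on the log2 scale with an SE of 0.086, and MCM5 fell by 0.34 with an SE of 0.089 (Benjamini-Hochberg adjusted p = 0.0299 and 0.0216 by edgeR). In the ring these subunits are neighbours, and their interface is known as the gate through which DNA enters.

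The other subunits stayed within 0.09 of 0 on the log2 scale. MCM3, MCM4, MCM6 and MCM7 had log2 fold changes of 0.082, -0.075, -0.074 and 0.028, with SEs between 0.078 and 0.091, and none passed. MCM3 had 257 to 273 CPM in DMSO and 281 to 283 CPM in CCS1477, without overlap. The summed CPM of MCM2 and MCM5 over the summed CPM of those 4 was 0.368, 0.354 and 0.335 in DMSO and 0.2999, 0.271 and 0.284 in CCS1477. Each treated library was below each control, a log2 difference of -0.31 (exact permutation, two-sided, p = 0.1, the lowest possible here, and adjusted p = 0.3 over the 3 ratios). This grouping was chosen after both genes had been seen to fall in these same libraries, so the separation and its p-value add no support. MCM2 made up 12.5% ± 0.696 of the counts of the 6 subunits in DMSO and 10.7% ± 0.333 in CCS1477, and MCM5 13.6% ± 0.261 and 11.4% ± 0.891 (SD, n = 3).

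Both falls were small and depended on which libraries were used. The MCM2 call ended without any 1 library but DMSO 3, with log2 fold changes from -0.36 to -0.25 over the 6 omissions, and with scaling by library size alone (adjusted p = 0.058). The MCM5 call ended without DMSO 1, DMSO 2, CCS1477 2 or CCS1477 3, with adjusted p = 0.0946, 0.0535, 0.137 and 0.0538 in edgeR's test. On the log2(TPM + 1) scale MCM2 stood at -0.23 and MCM5 at -0.38, and neither passed. An unnamed gene on the opposite strand overlaps 2331 bases of MCM2, averaged 220 counts against 1612 for MCM2, and had a log2 fold change of -0.37 (edgeR adjusted p = 0.107).

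None of the 6 genes that turn the loaded ring into an active helicase passed. With 17.9% of all tested genes called in either direction, this does not set the 6 apart. GINS4 came nearest, with 37.3, 41.3 and 44.1 CPM in DMSO and 33.7, 36.4 and 29.1 CPM in CCS1477. Its groups were separated by less than 1 CPM, and CCS1477 3 was the lowest library. GINS4 had a log2 fold change of -0.30 ± 0.12 (SE, Benjamini-Hochberg adjusted p = 0.11 by edgeR). An unnamed gene on the opposite strand overlaps all 15813 bases of GINS4, and another overlaps 4650. They averaged 150 and 66.2 counts against 364 for GINS4, with log2 fold changes of -0.13 and -0.022, and neither passed. Since strandedness is unknown, reads there cannot be told apart. Of the other GINS subunits, which stand in a complex with 1 copy of each, GINS1, GINS2 and GINS3 had log2 fold changes of 0.061, -0.016 and -0.16. CDC45, which ties GINS to the ring, had 48.9 to 52.4 CPM in DMSO and 49.1 to 52.5 CPM in CCS1477. Its log2 fold change was 0.0022 ± 0.097 (SE), with a 95% interval from -0.21 to 0.21. MCM10, which helps to start unwinding, stood at 0.020 ± 0.095 (SE), from 59.4 to 65.2 CPM in DMSO and from 61.9 to 67.5 CPM in CCS1477.

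At the fork, 4 of 6 genes had positive log2 fold changes and none passed. For all tested genes, 49.6% were positive and 17.9% were called in either direction. PCNA, the sliding clamp and a common marker of S phase, had 123, 122 and 111 CPM in DMSO and 125, 137 and 145 CPM in CCS1477. The groups did not overlap, with CCS1477 1 just above DMSO 1, and the log2 fold change was 0.19 ± 0.091 (SE, Benjamini-Hochberg adjusted p = 0.171 by edgeR). POLE, the catalytic subunit of the leading-strand polymerase, had 128, 154 and 129 CPM in DMSO and 157, 157 and 158 CPM in CCS1477. It stood at 0.20 ± 0.093 (SE), and without DMSO 2, the high control, at 0.30 (edgeR adjusted p = 0.0411).

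The flap endonuclease FEN1, which trims Okazaki fragments, ran from 111 to 133 CPM in DMSO and from 129 to 143 CPM in CCS1477. Its log2 fold change was 0.197 ± 0.096 (SE), and 0.27 without DMSO 3, where it passed (edgeR adjusted p = 0.045). FEN1 lies with 4259 bases inside the span of FADS2 on the same strand, a gene with 6010.5 counts on average against 1252 for FEN1 and a log2 fold change of -0.34 (edgeR adjusted p = 0.0107), so the share of reads given to each is uncertain. The clamp loader subunits RFC3 and RFC4 stood at 0.15 and -0.093, and POLA1, the catalytic subunit of the polymerase that starts each fragment, at -0.18 ± 0.13 (SE). DMSO 3 held the highest level of RFC4, 72.8 CPM, with the remaining controls at 53.1 and 58.8 CPM, and without DMSO 3 its log2 fold change was 0.036.

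UHRF1, which helps in copying DNA methylation onto new strands, and SLBP, which binds the stem-loop of histone mRNA, did not pass. UHRF1 had 191, 190 and 225 CPM in DMSO and 153, 198 and 177 CPM in CCS1477. CCS1477 2 was above DMSO 1 and DMSO 2, so the groups overlapped, and the log2 fold change was -0.20 ± 0.11 (SE). SLBP ran from 112 to 146 CPM in DMSO and from 119 to 130 CPM in CCS1477, with a log2 fold change of -0.072 ± 0.11 (SE).

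**Figure D3:**
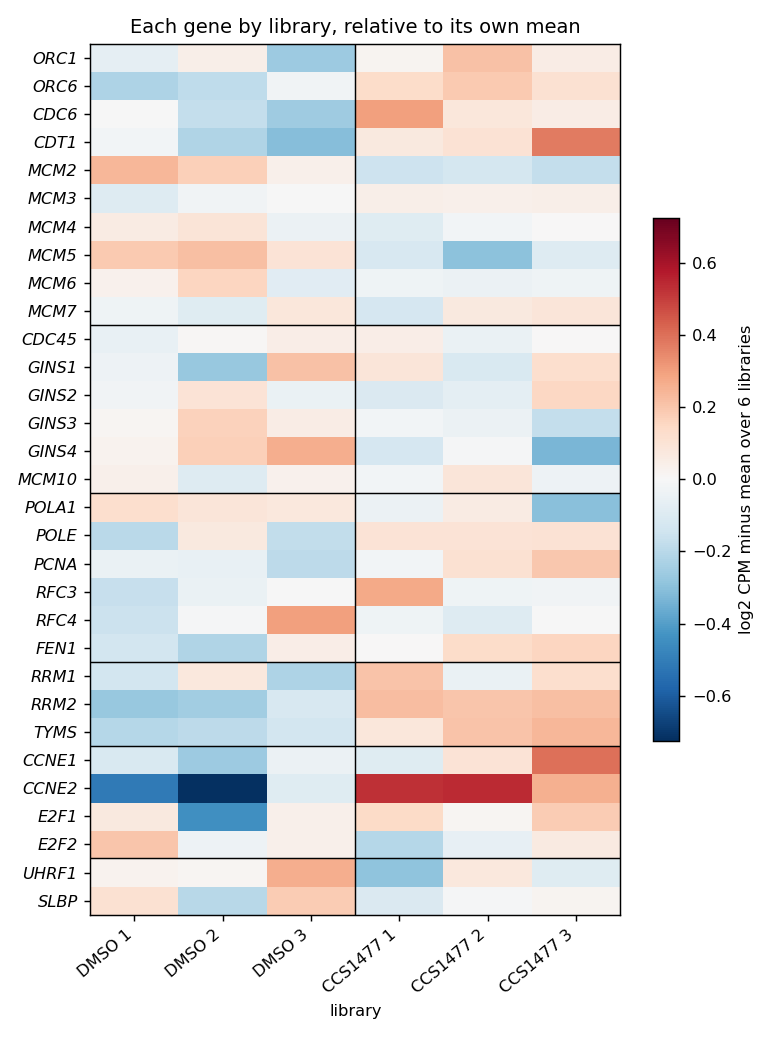
Log2 CPM of each of the 31 genes in each library minus its mean over the 6 libraries, with roles divided by horizontal lines and groups by the vertical line. CCNE2, RRM2, TYMS, CDT1, ORC6, CDC6 and MCM3 are below their mean in every DMSO library and above it in every CCS1477 library, MCM2, MCM5, GINS3 and GINS4 the reverse, and the other rows are mixed.

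Over the whole set, 9 of 31 genes (29.0%) had groups that did not overlap with CCS1477 higher, against 16.5% of all tested genes, and 5 (16.1%) with CCS1477 lower, against 19.3%. In either direction 35.9% of all tested genes did not overlap. Those that did not overlap but did not pass were ORC6, CDC6, MCM3, POLE and PCNA above and GINS3, GINS4 and POLA1 below. Of the 25 genes that did not pass, 20 had log2 fold changes within 0.2 of 0 and 10 within 0.1, with SEs from 0.078 to 0.16. The median gene of the 31 had a coefficient of variation of 7.76% over the DMSO libraries, against 12.3% for all tested genes. The sets were not matched for level, with median TPM in DMSO of 50.9 and 15.9, and this coefficient tends to fall as counts rise. Relative to each gene's mean over the 6 libraries, the median of the 31 genes ran from -0.037 to -0.0028 on the log2 scale in the DMSO libraries and from -0.020 to 0.054 in the CCS1477 libraries, so CCS1477 1 lay within the range of the controls.

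Levels per gene length differed far more between the genes than between the groups. Mean TPM in DMSO ran from 4.91 for E2F2 to 267 for MCM4, with a median of 50.9 against 15.9 for all tested genes, and 24 of the 31 lay above that median of all genes. TYMS and RRM2, at 221 and 221 TPM, were next to MCM4, ahead of PCNA at 152 TPM. The subunits of the helicase ring ran from 62.2 TPM for MCM6 and 75.4 for MCM2 through 115 for MCM5, 121 for MCM7 and 137 for MCM3 to MCM4. MCM4 varied on this scale, from 175 to 362 TPM in DMSO and from 187 to 339.9 in CCS1477, while its CPM stayed between 374 and 425. The gene length behind TPM was not the same in every library, so a difference in TPM need not be one in counts. GINS4, at 44.4 TPM, stood above GINS2, GINS3 and GINS1 at 16.7, 15.5 and 11.6 TPM. CCNE2 lay near the bottom of the order, at 10.5 ± 1.66 TPM in DMSO and 20.2 ± 2.66 TPM in CCS1477, so that it went from below CCNE1 (15.5 ± 0.496 TPM) to about its treated level (19.6 ± 4.11 TPM; SD, n = 3). In TPM, 11 of the 31 genes (35.5%) had every CCS1477 library above every DMSO library, against 16.2% of all tested genes, and 1 (3.23%), MCM5, had every one below, against 11.8%. The 11 were CCNE2, RRM2 and TYMS, which had passed in edgeR, and ORC6, CDC45, POLE, PCNA, RFC3, FEN1, RRM1 and CCNE1, which had not. CDC45, RFC3, FEN1, RRM1 and CCNE1 had groups that overlapped in CPM.

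**Figure D4:**
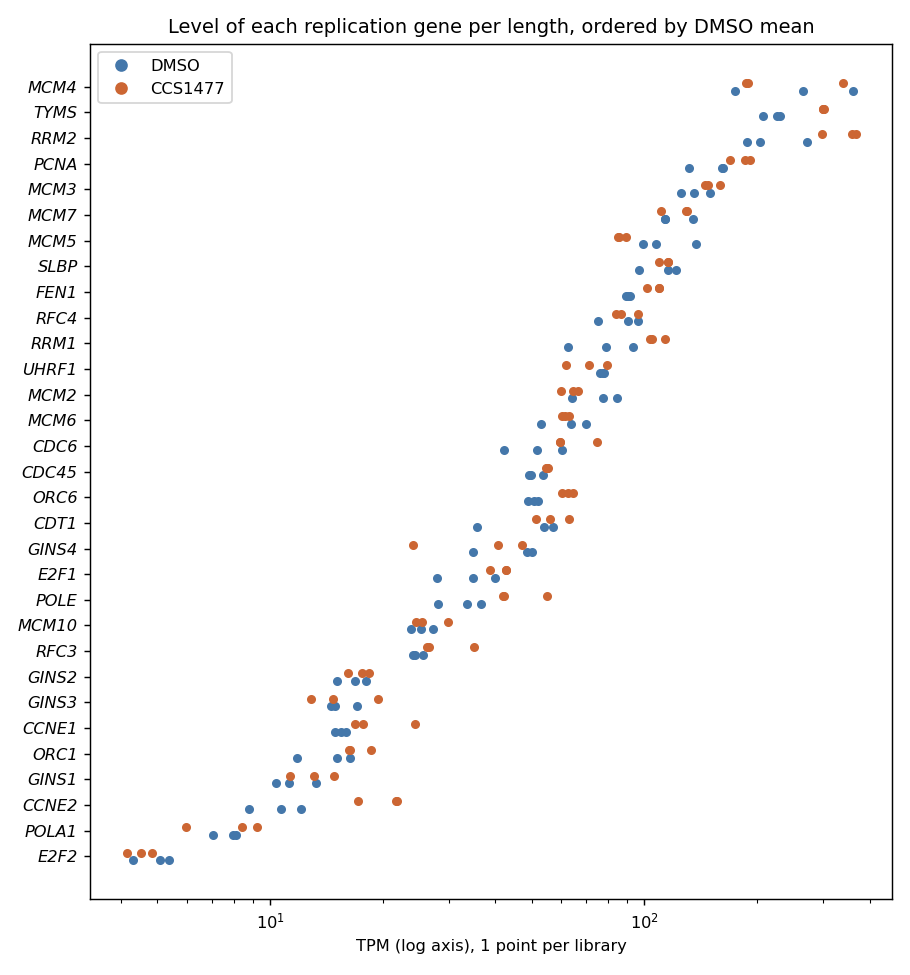
TPM of each of the 31 genes on a log axis, 1 point per library (blue DMSO, orange CCS1477), ordered by the DMSO mean. The genes span 4.91 to 267 TPM, and 11 genes have all orange points right of the blue ones, 1 gene (MCM5) all of them left, and in the other rows the groups mix.

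The genes sit on 18 different chromosomes, so position is not what they share. Many share a short word in the promoter. RefSeq windows (GRCh38.p14) from 250 bases before to 50 bases after a gene's start were matched by symbol for 27 of the 31 genes, all but CCNE2, MCM4, MCM5 and GINS4. They were searched on both strands for the words TTTCCCGC, TTTCGCGC, TTTGCCGC and TTTGGCGC, 4 usual spellings of an E2F binding site. Other spellings were not searched, so a window may hold further sites of this type, marked by no word. At least 1 word was found for 17 of the 27 genes (63.0%), against 703 of 10576 tested genes in the table (6.65%) and 3.99% of its 27305 symbols. A match is a string of letters and not a measured binding site.

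The promoters of the called genes with a window are shown from 80 bases before to 20 bases from the start, 5′ to 3′ on the gene's strand, because they differ in these words. Capitals mark the words.
CDT1 (chr16:88803709-88803808, plus strand): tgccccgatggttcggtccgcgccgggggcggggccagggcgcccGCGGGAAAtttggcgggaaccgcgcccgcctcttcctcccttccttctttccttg
TYMS (chr18:657573-657672, plus strand): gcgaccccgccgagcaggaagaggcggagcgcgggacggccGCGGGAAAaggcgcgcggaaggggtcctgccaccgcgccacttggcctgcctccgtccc
MCM2 (chr3:127598331-127598430, plus strand): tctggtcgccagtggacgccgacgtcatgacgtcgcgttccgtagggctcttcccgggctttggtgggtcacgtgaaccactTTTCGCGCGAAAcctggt
RRM2 (chr2:10122488-10122587, plus strand, the start farther upstream of 2): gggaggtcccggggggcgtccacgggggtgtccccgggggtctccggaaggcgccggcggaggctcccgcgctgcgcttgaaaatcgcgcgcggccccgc

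CDT1 and TYMS, which rose, each hold TTTCCCGC on the minus strand, shown above as GCGGGAAA from 35 and 39 bases before the start. MCM2, which fell, holds TTTCGCGC on both strands, 2 and 6 bases past its start, where the words overlap. RRM2, which rose, holds none of the words in either of its windows. Among the 17 genes with a word, 2 were higher and 1 was lower, with a median log2 fold change of 0.06 and a range from -0.30 to 0.36. Among the 10 without, 1 was higher and 0 lower, with a median of 0.18 and a range from -0.093 to 0.43. Genes with and without these words were thus found on both sides of 0.

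A list of 90 other replication genes was read in the same way. Among the 89 that were tested, 13 (14.6%) rose and 5 (5.62%) fell, while 71 missed the threshold, and the median log2 fold change was 0.077. All tested genes again gave 7.23% higher and 10.7% lower. The only gene under the filter was CCND2, with at most 2 counts in a library. Of the 31 polymerase and fork genes, 6 were higher and 0 lower, and of the 15 licensing and firing genes, 2 were higher and 1 lower. Chromatin assembly genes had 0 of 11 called in edgeR's test, and 3 of 11 (27.3%) were at an unadjusted p under 0.05, against 31.7% of all tested genes.

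Fork genes that rose included the checkpoint mediators TIMELESS and CLSPN, which travel with the helicase, and LIG1, which joins Okazaki fragments. TIMELESS went from 117 ± 3.48 to 163 ± 6.57 CPM, CLSPN from 62.2 ± 2.33 to 89.4 ± 5.61 CPM and LIG1 from 35.7 ± 1.84 to 53.9 ± 4.36 CPM (SD, n = 3). In each, all treated libraries were above all controls. CHTF18, of an alternative clamp loader, rose with a log2 fold change of 0.65, and RNASEH2C, a subunit of the ribonuclease that removes ribonucleotides from DNA, with one of 0.54. Of the licensing and firing genes, the helicase RECQL4 rose from 60.05 ± 2.66 to 87.04 ± 4.60 CPM and ORC4 with a log2 fold change of 0.44. The adjusted p of these 7 genes lay between 0.00222 and 0.0189 in edgeR. CLSPN, CHTF18, RECQL4 and ORC4 did not pass on the log2(TPM + 1) scale, where they stood at 0.32, 0.54, 0.37 and 0.26, and the ORC4 call ended without DMSO 1, CCS1477 2 or CCS1477 3.

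In the control of entry into S phase, 3 genes rose and 3 fell of 22 tested. That is 13.6% each way, against 7.23% higher and 10.7% lower of all tested genes. CCND3, a D-type cyclin, rose from 56.2 ± 2.01 to 83.4 ± 4.54 CPM, the CDK inhibitor CDKN1A from 71.1 ± 5.57 to 108 ± 13.1 CPM, and E2F7, a repressor of the E2F targets, from 15.1 ± 4.35 to 25.6 ± 1.73 CPM (SD, n = 3). CDKN2A, the gene of p16, fell from 349 ± 37.1 to 243 ± 47.9 CPM. The calls of E2F7 and CDKN2A ended without DMSO 1 or CCS1477 1, and that of CDKN2A also without CCS1477 2, and E2F7 did not pass on the TPM scale. RB1 mRNA was at 72.6 to 83.1 CPM in DMSO and 72.6 to 99.97 CPM in CCS1477, with a log2 fold change of 0.15 that did not pass.

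Among 10 nucleotide enzymes, NME1, a nucleoside diphosphate kinase, fell from 175 ± 22.4 to 119 ± 3.56 CPM (SD, n = 3), a log2 fold change of -0.56 (Benjamini-Hochberg adjusted p = 0.00321 by edgeR). On log2(TPM + 1) values NME1 was at -0.46 and missed the threshold (limma adjusted p = 0.0507). The remaining calls are named after their values were seen. RRM2B, the other small subunit of ribonucleotide reductase, stood at 0.35, SAMHD1, which breaks down deoxynucleotides, at 0.298 and the clamp loader subunit RFC1 at 0.31. DBF4, the activator of the kinase that fires origins, stood at -0.38, CDK4 at -0.39 and CDK6 at -0.70. Each of these 6 calls ended without at least 3 of the 6 single libraries, and none of the 6 passed on the log2(TPM + 1) scale.

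**Figure D5:**
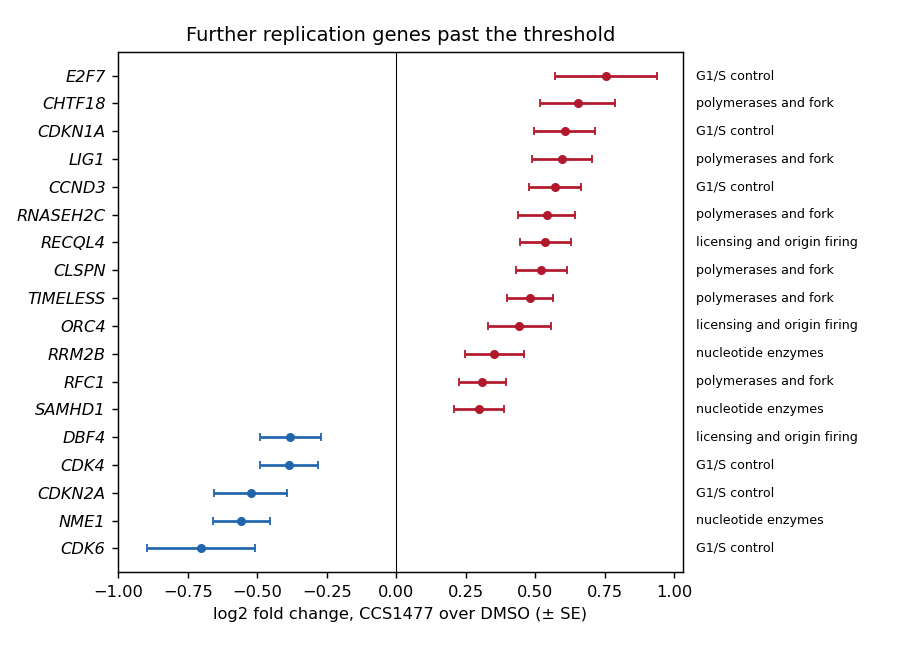
Log2 fold change, CCS1477 over DMSO, with its standard error, for the 18 further replication genes past the threshold, with their role at the right. The 13 higher genes (red) run from 0.298 for SAMHD1 to 0.75 for E2F7, and the 5 lower genes (blue) from -0.38 for DBF4 to -0.70 for CDK6.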

How the data were processed

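Poly-A RNA libraries of DU145 cells, 3 given DMSO and 3 given CCS1477, were compared. The authors deposited estimated counts per gene, not normalized, and TPM, in which counts are scaled to a gene length and to an equal sum in every library. That length was not fixed over the libraries. In DMSO 1 and DMSO 2, MCM4 had 4864 and 4970 counts but 265 and 362 TPM, while TYMS had 2583 and 2610 counts and 230 and 227 TPM. How the length was set is not stated in the sources used here. Between 10.2% and 10.7% of the nonzero deposited counts of a library carried decimals, and counts were rounded. Per the submitters' processing notes, reads were handled with Trimmomatic 0.39. No source used here gives the aligner, quantifier, genome build or strandedness.

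Of 60623 genes, 14928 passed filterByExpr in edgeR 4.0.16 (minimum count 10, minimum total 15). The groups were then tested in edgeR (quasi-likelihood F test) with TMM factors, no covariates and Benjamini-Hochberg adjustment over the 14928 genes, at a threshold of 0.05. Standard errors come from the test statistic. R was 4.3.3 and matplotlib 3.10.9. The fit was tested on simulated data. No 2 libraries of a group agreed within sampling noise: the chi-square per degree of freedom over genes lay between 3.22 and 19.3. Alternatives used DESeq2 1.42.0, limma 3.58.1, other scaling factors, filters and thresholds, the replicate number as a block, and each library left out.

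All 31 genes and the list of 90 further replication genes were chosen with earlier results of these data known. Values in every library are given for genes of the 31 past the threshold and for the 6 with the largest changes among the rest that averaged at least 5 CPM. Of the further genes, the 12 with the smallest adjusted p are named by rule.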

Additional observations from a re-analysis of the deposited data

How the results depend on the processing

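No member or further gene past the threshold changed direction under any alternative. Counts of higher and lower genes were 2 and 0 among the 31, 5 and 1 among the 89 further genes and 293 and 427 among all genes in limma on log2(TPM + 1). On log2(TPM + 0.1) they were 2 and 0, 5 and 1, and 280 and 410. At an adjusted p of 0.01 they were 2 and 0, 8 and 1, and 380 and 852. With library size alone 1 of the 31 was lower. Leaving out 1 library gave 2 to 5 higher and 0 to 2 lower of the 31, 8 to 14 and 1 to 5 of the further genes, and 487 to 1311 and 925 to 1772 of all genes. The replicate numbers did not pair the samples: same-numbered libraries had correlations of deviations of -0.087, -0.20 and -0.0067. Positive values were found for DMSO 1 with CCS1477 3 (0.11), DMSO 2 with CCS1477 1 (0.27) and DMSO 3 with CCS1477 2 (0.20). All other pairs were negative. Whether the libraries were paired in an order other than their numbers was not tested. With the replicate block, 3 of the 31 were higher and 0 lower. In edgeR, 9 of the 31 had an unadjusted p under 0.05 with the block, the same number as without it. Their median log2 fold change was 0.066 with the block and 0.061 without it. The block also takes up degrees of freedom, so a loss of calls there need not be particular to these genes.

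Signs flipped only for genes that did not pass. GINS2 stood at 0.032 with library size alone, 0.00057 without a filter, and 0.059 and 0.062 on log2(TPM + 1) and log2(TPM + 0.1). On those 2 scales POLA1 stood at 0.012 and 0.011, RFC4 at 0.032 and 0.033, and SLBP at 0.035 and 0.036. With 1 library left out, MCM7 ran from -0.0086 to 0.099, CDC45 from -0.020 to 0.028, GINS1 from -0.042 to 0.18, GINS2 from -0.097 to 0.042, MCM10 from -0.018 to 0.050, RFC4 from -0.18 to 0.036 and SLBP from -0.17 to 0.00075. The cause was not tested. With 3 libraries a group, 25 genes had SEs of 0.078 to 0.16, and the smallest log2 change called among the 31 was the -0.30 of MCM2.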
